A study of Rattus norvegicus with 9 samples.

Results

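Genes of the TGF-beta pathway were followed in HBZY-1 cells, an established line derived from rat glomerular mesangium, whose cells hold the capillary loops of the kidney filter together. The members were set by a list of 7 Ensembl identifiers, which the list pairs with the names Tgfb1, Tgfb2, Tgfb3, Tgfbr1, Tgfbr2, Smad3 and Smad7. Of these, 6 had a row in the gene table of 30560 genes and are described, while the Tgfb2 identifier was absent from it. All 6 passed the filter for testing, a mean of 1 TPM or more over the libraries, as did 12192 genes in all. Libraries came from 3 groups of 3. The extract group was given, at high dose, an aqueous extract made from lyophilized powder of the leech Poecilobdella manillensis. The LPS group was induced with LPS, lipopolysaccharide of the bacterial outer membrane, and the control group carries no other label. The labels leave unsaid whether extract cells also received LPS, and which dose and time were used for either agent. The series calls the replicates biological, without naming separate cultures, so the p-values measure the spread between these libraries. All libraries come from this single cell line of glomerular origin, grown in culture rather than within a glomerulus.

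TGF-beta ligands are secreted in a latent form bound to their own propeptides, and become active when released from them. An active dimer binds the type II receptor, which then phosphorylates the type I receptor, and the type I receptor phosphorylates Smad2 and Smad3. These enter the nucleus with Smad4 and regulate transcription, while Smad7, itself a transcriptional target of the pathway, blocks the type I receptor. In mesangial cells the pathway is known for driving the production of extracellular matrix. Transcript levels of these genes do not measure the activation of the ligands or the phosphorylation of Smad proteins.

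The promoters of the 4 members that differed between extract and LPS cells under every alternative processing are given next, to set the genes' start regions beside their values. Each sequence is RefSeq's, on GRCr8, and covers 250 bases before to 50 bases after the gene's start, written 5′ to 3′ on the gene's strand. The build behind the deposited TPM is not stated in the labels, so the windows were matched by symbol, which succeeded for all 7 members. Capitals mark the GC box GGGCGG on either strand. The Tgfb3 window lies at chr6:111456897-111457196 on the minus strand, the Tgfbr2 window at chr8:124761420-124761719 on the minus strand, the Smad3 window at chr8:73132275-73132574 on the minus strand, and the Smad7 window at chr18:71263258-71263557 on the plus strand.
Tgfb3: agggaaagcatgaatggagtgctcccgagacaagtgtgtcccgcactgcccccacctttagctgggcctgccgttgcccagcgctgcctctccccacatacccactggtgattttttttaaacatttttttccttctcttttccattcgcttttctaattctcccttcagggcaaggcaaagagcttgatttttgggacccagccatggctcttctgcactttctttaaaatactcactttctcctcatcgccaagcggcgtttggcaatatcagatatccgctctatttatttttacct
Tgfbr2: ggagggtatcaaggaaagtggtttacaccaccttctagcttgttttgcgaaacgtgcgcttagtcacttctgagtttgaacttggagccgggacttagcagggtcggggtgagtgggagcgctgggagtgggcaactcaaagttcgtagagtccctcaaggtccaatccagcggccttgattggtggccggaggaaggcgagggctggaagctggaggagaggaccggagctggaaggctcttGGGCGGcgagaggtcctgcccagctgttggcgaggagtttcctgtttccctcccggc
Smad3: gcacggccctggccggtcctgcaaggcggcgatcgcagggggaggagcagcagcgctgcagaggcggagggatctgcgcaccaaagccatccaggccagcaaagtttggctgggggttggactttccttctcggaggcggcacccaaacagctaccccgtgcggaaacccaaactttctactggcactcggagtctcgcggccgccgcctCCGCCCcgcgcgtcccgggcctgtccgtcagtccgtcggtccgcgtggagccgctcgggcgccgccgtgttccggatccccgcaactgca
Smad7: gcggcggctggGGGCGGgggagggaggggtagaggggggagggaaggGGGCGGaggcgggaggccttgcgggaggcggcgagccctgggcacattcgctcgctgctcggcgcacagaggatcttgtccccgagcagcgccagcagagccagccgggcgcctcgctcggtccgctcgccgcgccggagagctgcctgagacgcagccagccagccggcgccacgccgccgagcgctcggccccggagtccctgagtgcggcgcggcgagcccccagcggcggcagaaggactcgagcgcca

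The windows differ in base composition. G and C make up 47.7% of the Tgfb3 window, 59.0% of the Tgfbr2 window, 69.7% of the Smad3 window and 77.7% of the Smad7 window, against a median of 51.7% over 33469 rat promoters of the same length. The GC box was found once in the Tgfbr2 window and once in the Smad3 window, on the opposite strand. The Smad7 window held 2 copies. The GC box was also found in the window of Tgfbr1, with first bases at -158, -141 and -103 from the gene's start. It occurred in 33.1% of all promoters. Also searched on both strands were the Smad box GTCTAGAC, the shorter Smad motif CAGAC, the AP-1 motif TGANTCA and the TATA box TATAAA. These motifs were found in none of the 7 windows. In all promoters they occurred in 0.197%, 50.1%, 7.33% and 14.2%, in the same order. The absence of a match says only that these letters are not in these windows.

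Abundance was deposited as TPM, a transcript's length-corrected share of all transcripts in a library, which sums to 1000000 per library. TPM keeps no record of depth, so the depth of the libraries is unknown and precision rests on the replicates. Between 15479 and 15837 genes were above 0 TPM in a library. Libraries of the same group correlated at 0.9766 or more across the tested genes, those of different groups at 0.9689 or less. No pair of libraries held identical values. The identity of the cells could not be checked against markers, since the tables do not pair identifiers with names.

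Among the ligands, Tgfb1 was abundant and level across the groups, whereas Tgfb3 was lower in LPS cells and was near its control level in extract cells. Tgfb1 (ENSRNOG00000020652), the main TGF-beta isoform of the injured kidney, had 131.6, 127.2 and 124.3 TPM in extract cells, 137.9, 125.2 and 135.8 TPM in LPS cells, and 134.2, 126.1 and 137.8 TPM in control cells. The 3 groups overlapped. Differences are given as log2 fold changes ± SE on the log2(TPM + 1) scale throughout. For Tgfb1, LPS versus control gave 0.0027 ± 0.047, with a 95% interval from -0.10 to 0.11 (limma adjusted p = 0.971). Extract versus LPS gave -0.06 ± 0.047 (95% interval -0.16 to 0.05, limma adjusted p = 0.332). With median-of-ratios scaling the extract difference from LPS cells was -0.11 (limma adjusted p = 0.0532, the lowest over all alternatives). Against control cells the extract difference was -0.05 ± 0.047 (95% interval -0.16 to 0.05, limma adjusted p = 0.369). RNA per culture is measured here, so fewer cells expressing a gene and less RNA per cell cannot be told apart.

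Tgfb3 (ENSRNOG00000009867), an isoform that signals through the same receptors, had 19.4, 19.8 and 19.9 TPM in extract cells, 11.3, 9.34 and 9.97 TPM in LPS cells, and 18.5, 17.2 and 18.6 TPM in control cells. Every LPS library lay below every library of the other groups. The mean was 10.2 ± 1.0 TPM in LPS cells against 18.1 ± 0.82 TPM in control cells (SD, n = 3 each), 0.564 times the control level. The difference on the log2 scale was -0.77 ± 0.065 (limma adjusted p = 1.69e-05), a size that exceeded that of 94.6% of the tested genes. Extract cells averaged 19.7 ± 0.25 TPM against 10.2 ± 1.0 TPM in LPS cells, 1.93 times the LPS level as a ratio of mean TPM. On the log2(TPM + 1) scale the difference was 0.89 ± 0.065 (limma adjusted p = 2.62e-06), larger than that of 93.1% of genes. All 3 extract libraries also lay above all 3 control libraries, but the difference was small. At 0.12 ± 0.065 on the log2 scale it did not pass the threshold (95% interval -0.03 to 0.26, limma adjusted p = 0.159). Over all alternatives its limma adjusted p ranged from 0.0577 to 0.381. The 2 Tgfb3 contrasts with LPS cells use the same LPS libraries and are not independent of each other.

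**Figure D1:**
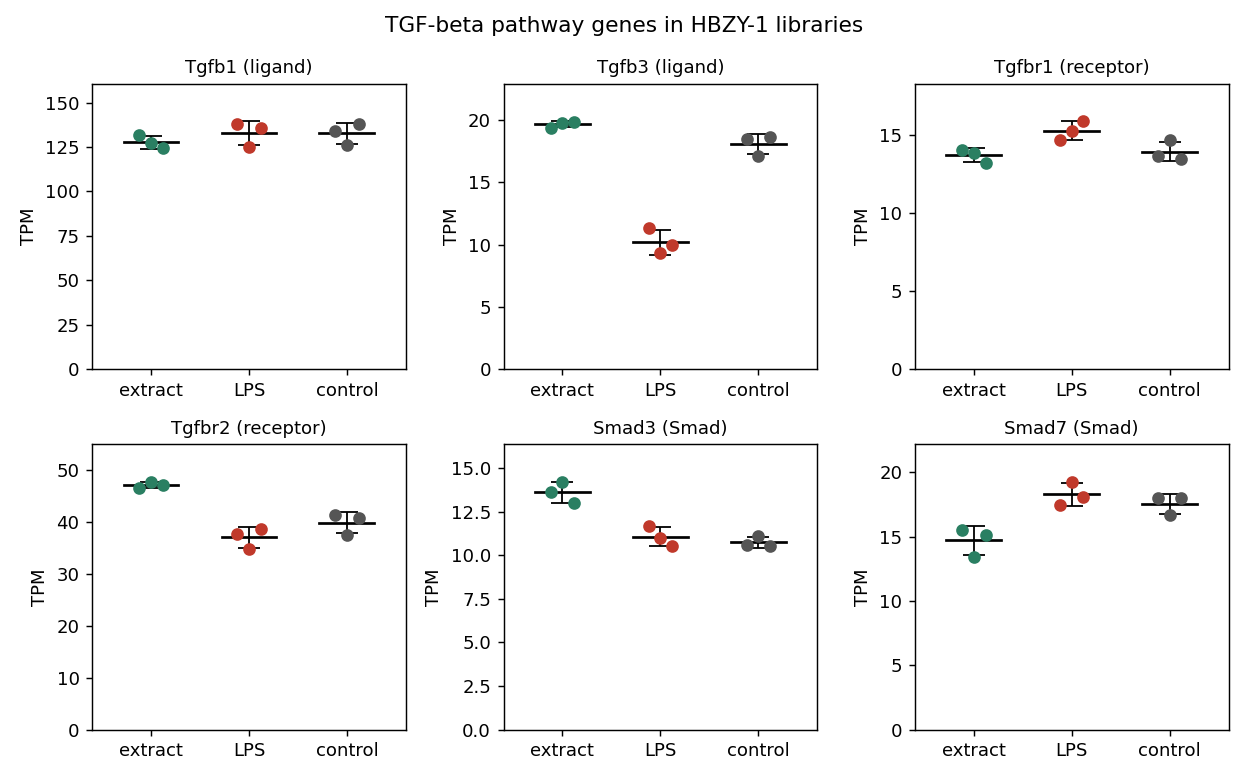
TPM of each gene (vertical axis, from 0) in the 3 libraries of extract, LPS and control cells (horizontal axis). Points are libraries, horizontal lines are means and bars are SD. Tgfb3 in the 3 LPS libraries lies between 9.34 and 11.3 TPM, below all others, while the groups of Tgfb1 overlap.

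The receptors moved in different directions. Tgfbr2, the type II receptor that binds the ligand, was higher in extract cells than in both other groups, whereas Tgfbr1, the type I receptor that phosphorylates the Smads, was slightly lower in extract than in LPS cells. Tgfbr2 (ENSRNOG00000013265) had 46.5, 47.7 and 47.1 TPM in extract cells, 37.7, 34.7 and 38.6 TPM in LPS cells, and 41.2, 37.4 and 40.8 TPM in control cells. The extract libraries stood above all 6 others, and the LPS and control libraries overlapped. Against LPS cells the extract difference was 0.34 ± 0.051 (limma adjusted p = 0.000300). Against control cells it was 0.24 ± 0.051 (limma adjusted p = 0.00345). LPS versus control gave -0.10 ± 0.051 (95% interval -0.22 to 0.01, limma adjusted p = 0.137). Without control replicate 2 this last difference passed the threshold, at -0.15 (limma adjusted p = 0.0470; over all alternatives the adjusted p ranged from 0.0470 to 0.859).

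Tgfbr1 (ENSRNOG00000007036) had 14.1, 13.9 and 13.2 TPM in extract cells, 14.7, 15.3 and 15.9 TPM in LPS cells, and 13.7, 14.7 and 13.5 TPM in control cells. LPS libraries lay above all extract and all control libraries, by narrow margins. Against LPS cells the extract difference was -0.15 ± 0.050 (limma adjusted p = 0.0290). This call was lost without LPS replicate 2 or 3 and without extract replicate 2 or 3, where the adjusted p lay between 0.0570 and 0.0980 (range over all alternatives 0.00676 to 0.0980). LPS versus control gave 0.12 ± 0.050 (limma adjusted p = 0.0754). That difference passed the threshold with median-of-ratios scaling, at 0.21 (limma adjusted p = 0.00829), with quantile normalization, at 0.22 (limma adjusted p = 0.00708), and without control replicate 2, at 0.16 (limma adjusted p = 0.0438), within a range of 0.00708 to 0.202 over all alternatives. Extract versus control gave -0.02 ± 0.050 (95% interval -0.14 to 0.09, limma adjusted p = 0.728).

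The Smads moved in opposite directions in extract cells. Smad3, which carries the signal to the nucleus, was higher in extract cells than in both other groups. Smad7, the inhibitory Smad, was lower. For neither gene did LPS versus control pass the threshold. Smad3 (ENSRNOG00000008620) had 13.6, 14.2 and 13.0 TPM in extract cells, 11.66, 10.99 and 10.56 TPM in LPS cells, and 10.57, 11.12 and 10.55 TPM in control cells. No LPS or control library reached the lowest extract library. Against LPS cells the Smad3 difference was 0.28 ± 0.053 (limma adjusted p = 0.00148). Relative to control cells it was 0.32 ± 0.053 (limma adjusted p = 0.000858). LPS versus control gave 0.04 ± 0.053 (95% interval -0.08 to 0.16, limma adjusted p = 0.603).

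Smad7 (ENSRNOG00000018359) had 15.5, 13.4 and 15.1 TPM in extract cells, 17.5, 19.3 and 18.1 TPM in LPS cells, and 18.0, 16.6 and 18.0 TPM in control cells. The extract libraries lay below all 6 others. Against LPS cells the Smad7 difference was -0.30 ± 0.063 (limma adjusted p = 0.00258). Relative to control cells it was -0.24 ± 0.063 (limma adjusted p = 0.00965). LPS versus control gave 0.06 ± 0.063 (95% interval -0.09 to 0.20, limma adjusted p = 0.521). Both extract contrasts of Smad3 and of Smad7 share the extract libraries.

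Differences were common over the whole table, and the counts of members are to be read beside it. In LPS versus control 1 of the 6 members was called, Tgfb3, where 40.7% of the tested genes were called, 9.79% higher and 30.9% lower. That split depended on the scaling of the libraries, with 1193 genes higher and 3769 lower as deposited, 2102 and 2278 after median-of-ratios scaling, and 1940 and 2402 after quantile normalization. The median absolute log2 fold change of the 6 members was 0.08, beside 0.15 over all tested genes. In extract versus LPS 5 of 6 were called, 3 higher and 2 lower, where 59.4% of genes were called, 34.4% higher and 25% lower. The medians were 0.29 for the members and 0.24 for all genes. In extract versus control 3 of 6 were called, 2 higher and 1 lower, where 51.7% of genes were called, 22.3% higher and 29.4% lower, and the medians were 0.18 and 0.20. Values of the groups did not overlap for 2, 5 and 4 members in these 3 comparisons, where they did not overlap for 50.1%, 65.1% and 61.1% of genes. With 6 genes these counts are no result about the pathway. Apart from Tgfb3, whose size of change is given above, no member exceeded the 69th percentile of absolute log2 fold changes in any comparison.

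**Figure D2:**
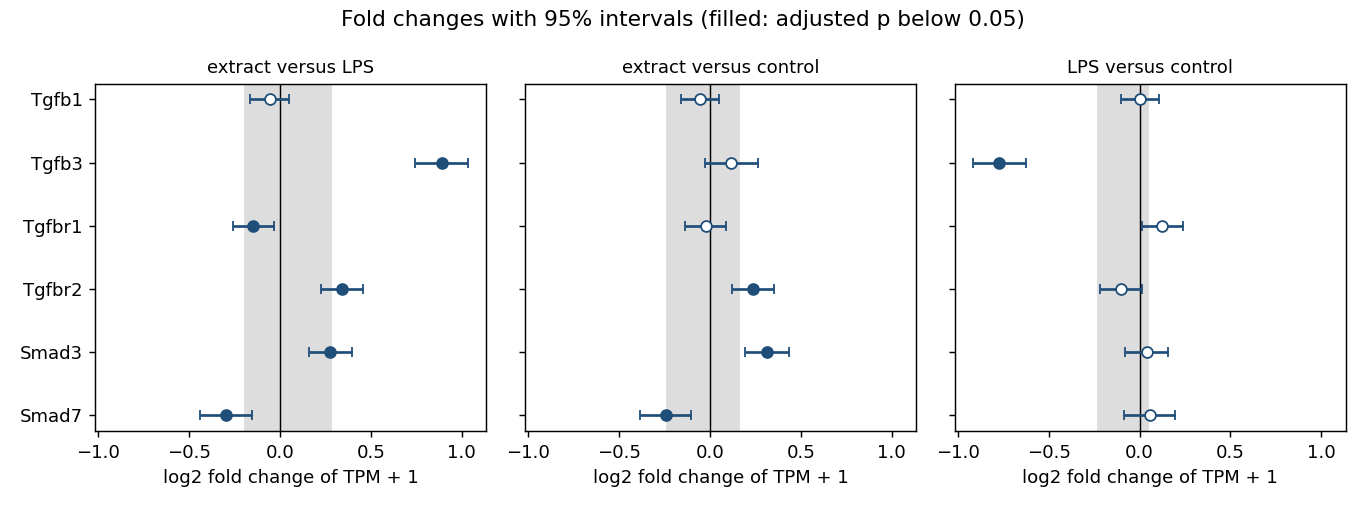
Log2 fold changes of TPM + 1 (horizontal axis) of the 6 genes (vertical axis) in extract versus LPS, extract versus control and LPS versus control. Bars are 95% intervals from limma, filled points passed an adjusted p of 0.05, and the grey band spans the lower to the upper quartile of all 12192 tested genes. Tgfb3 lies far outside the band at 0.89 in extract versus LPS and at -0.77 in LPS versus control.

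Ratios within a library do not depend on how libraries are scaled to each other, and those given here were chosen after the values had been seen. The Tgfb3 share took the place of a ligand share that would have included Tgfb2. Tgfb3 made up 12.9%, 13.5% and 13.8% of the summed Tgfb1 and Tgfb3 TPM in extract libraries, 7.58%, 6.94% and 6.84% in LPS libraries, and 12.13%, 11.98% and 11.90% in control libraries. The LPS share was the lowest in every pairing of libraries. The sum itself, dominated by Tgfb1, averaged 147.4 ± 3.5 TPM in extract, 143.2 ± 7.6 TPM in LPS and 150.8 ± 6.8 TPM in control cells (SD, n = 3 each), with overlapping groups. The mean share of Tgfb3 differed by -4.89 points between LPS and control libraries (exact permutation p = 0.1, two-sided) and the sum by -7.62 TPM (exact permutation p = 0.3, two-sided). With 3 libraries against 3, 0.1 is the smallest p this test can give, and none of the 12 tests of ratios and sums passed 0.05, with a lowest Benjamini-Hochberg adjusted p of 0.171.

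The Tgfbr2 to Tgfbr1 ratio of TPM was 3.30, 3.44 and 3.56 in extract libraries, 2.57, 2.27 and 2.42 in LPS libraries, and 3.01, 2.55 and 3.02 in control libraries. Extract libraries had the highest ratios, with no overlap, while LPS and control libraries overlapped (exact permutation p = 0.2, two-sided). The Smad3 to Smad7 ratio was 0.876, 1.06 and 0.861 in extract libraries, 0.667, 0.570 and 0.583 in LPS libraries, and 0.587, 0.668 and 0.586 in control libraries. Its mean was 0.932 ± 0.11 in extract, 0.607 ± 0.053 in LPS and 0.614 ± 0.047 in control cells (SD, n = 3 each), which is 1.54 times the LPS and 1.52 times the control ratio (exact permutation p = 0.1 for each, two-sided). Extract libraries already lay apart for Smad3 and Smad7, in opposite directions. Their ratio therefore had to separate, and its p adds no support to the results of the genes.

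**Figure D3:**
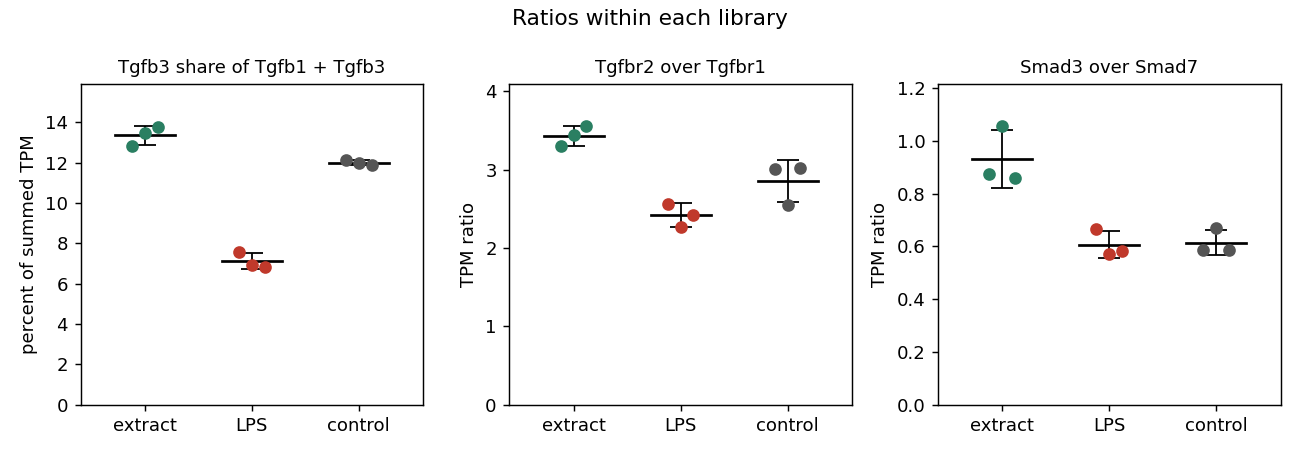
Ratios within each library (vertical axes, from 0) for extract, LPS and control cells: the share of Tgfb3 in the summed Tgfb1 and Tgfb3 TPM in percent, and the TPM ratios Tgfbr2 over Tgfbr1 and Smad3 over Smad7. Points are libraries, lines are means and bars are SD. LPS libraries hold the lowest Tgfb3 shares, 6.84% to 7.58%, and extract libraries the highest Smad3 over Smad7 ratios, 0.861 to 1.06.

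The order of levels, comparable between genes because TPM is corrected for length, was led by Tgfb1 and then Tgfbr2 in all 3 groups. Tgfb1 lay at the 91.1th percentile of the tested genes by mean TPM and Tgfbr2 at the 71.0th, while the other 4 lay between 35.4 and 45.5. In extract cells the TPM of Tgfb3 came next, followed by Smad7, Tgfbr1 and Smad3, whose libraries overlapped between neighbours. In LPS cells Smad7 followed Tgfbr2, ahead of Tgfbr1 and Smad3, and Tgfb3 had the lowest mean, with libraries overlapping those of Smad3. In control cells Tgfb3 and Smad7 followed Tgfbr2 with overlapping libraries, then Tgfbr1 and Smad3.

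At the level of transcripts, Tgfb1, Tgfb3 and Tgfbr1 were each represented by 1 expressed transcript, and the other 3 members by more. A single transcript holds the same values as its gene. Tested among the transcripts, that of Tgfbr1 did not pass the threshold in extract versus LPS (limma adjusted p = 0.0731), where the gene did. Transcripts were linked to a gene where a run of neighbouring rows added up to its TPM in all 9 libraries, which gave 10 transcripts, of which 8 reached the mean of 1 TPM needed for testing. In LPS versus control 3 of the 8 were called, 1 higher and 2 lower, where 23% of 19383 tested transcripts were called. In extract versus LPS 4 were called, 3 higher and 1 lower, against 39.1% of all. In extract versus control 2 were called, each higher, against 32%. The calls of the Tgfb3 transcript repeat those of its gene. With 8 transcripts these counts are no result about the pathway.

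Tgfbr2 was split between a major and a minor transcript, and the minor one was lower in LPS than in control cells. This transcript, ENSRNOT00000037883, had 3.3, 4.26 and 2.36 TPM in extract libraries, was listed at 3.05, 0 and 0.54 TPM in LPS libraries, and had 9.82, 9.25 and 4.79 TPM in control libraries. Its share of Tgfbr2 ranged from 5.01% to 8.93% in extract, from 0% to 8.09% in LPS and from 11.7% to 24.7% in control libraries. Control libraries lay above the 6 others in both level and share. LPS versus control gave -2.23 ± 0.48 (limma adjusted p = 0.0112), a size that depended on the pseudocount, with -3.71 at 0.1 and -1.07 at 5. The difference in extract versus control, at -1.03 ± 0.48, did not pass the threshold (limma adjusted p = 0.143). It passed without LPS replicate 1, at -1.03 (limma adjusted p = 0.0365), as did extract versus LPS, at 1.77 (limma adjusted p = 0.00526). The major transcript, ENSRNOT00000116107, had 43.2, 43.5 and 44.7 TPM in extract libraries, 34.7, 34.7 and 38.1 TPM in LPS libraries, and 31.4, 28.2 and 36.0 TPM in control libraries. It was higher in extract than in control cells by 0.45 ± 0.082 (limma adjusted p = 0.00313) and than in LPS cells by 0.28 ± 0.082 (limma adjusted p = 0.0233). The second call was lost without LPS replicate 1 or 2 and without extract replicate 1, 2 or 3, with an adjusted p of 0.0533 to 0.0728. In LPS versus control it gave 0.17 ± 0.082 (limma adjusted p = 0.181), which passed without control replicate 3, at 0.26 (limma adjusted p = 0.0322), and with median-of-ratios scaling, at 0.26 (limma adjusted p = 0.0481). The split between the 2 transcripts is an estimate, and its error within a library was not analysed here.

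Smad7 also had 2 transcripts above 1 TPM. ENSRNOT00000024831 had 5.94, 5.59 and 4.62 TPM in extract libraries, 6.8, 7.4 and 8.88 TPM in LPS libraries, and 5.01, 5.62 and 5.75 TPM in control libraries. LPS libraries were the highest throughout, unlike for the gene as a whole, where LPS and control libraries overlapped. LPS versus control gave 0.42 ± 0.12 (limma adjusted p = 0.0341). This call was lost without any 1 of the control libraries, LPS replicate 2 or 3 or extract replicate 2, with an adjusted p of 0.0512 to 0.109, and with the replicate block (limma adjusted p = 0.0724). Extract versus LPS gave -0.44 ± 0.12 (limma adjusted p = 0.0169), a call lost without LPS replicate 3 (limma adjusted p = 0.0562) or extract replicate 3 (limma adjusted p = 0.0581). ENSRNOT00000115038 averaged 9.05 ± 1.4 TPM in extract, 10.53 ± 1.2 TPM in LPS and 11.8 ± 0.95 TPM in control cells (SD, n = 3 each). It passed the threshold in no comparison, with -0.36 ± 0.12 in extract versus control (limma adjusted p = 0.0513). Without LPS replicate 3 or extract replicate 3 that difference passed, at -0.36 (limma adjusted p = 0.0465) and -0.46 (limma adjusted p = 0.0254).

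Most of Smad3 was assigned to ENSRNOT00000039730, with 13.6, 13.4 and 11.4 TPM in extract libraries, 11.06, 10.99 and 10.56 TPM in LPS libraries, and 10.57, 11.12 and 10.55 TPM in control libraries. Its share of Smad3 was 100%, 93.8% and 87.9% in extract libraries, 94.9%, 100% and 100% in LPS libraries, and 100% in every control library. The difference of 0.21 ± 0.073 in extract versus LPS passed the threshold (limma adjusted p = 0.0457), as did 0.23 ± 0.073 against control cells (limma adjusted p = 0.0415). Both calls were lost when any 1 library other than extract replicate 3 was left out, with adjusted p from 0.0546 to 0.143, whereas those for the whole gene were kept. The first was also lost with median-of-ratios scaling (limma adjusted p = 0.115) and the replicate block (limma adjusted p = 0.0512). A second Smad3 transcript, ENSRNOT00000099327, was listed at 0, 0.88 and 1.59 TPM in extract libraries, at 0.6, 0 and 0 TPM in LPS libraries and at 0 in all 3 control libraries, too low to be tested.

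**Figure D4:**
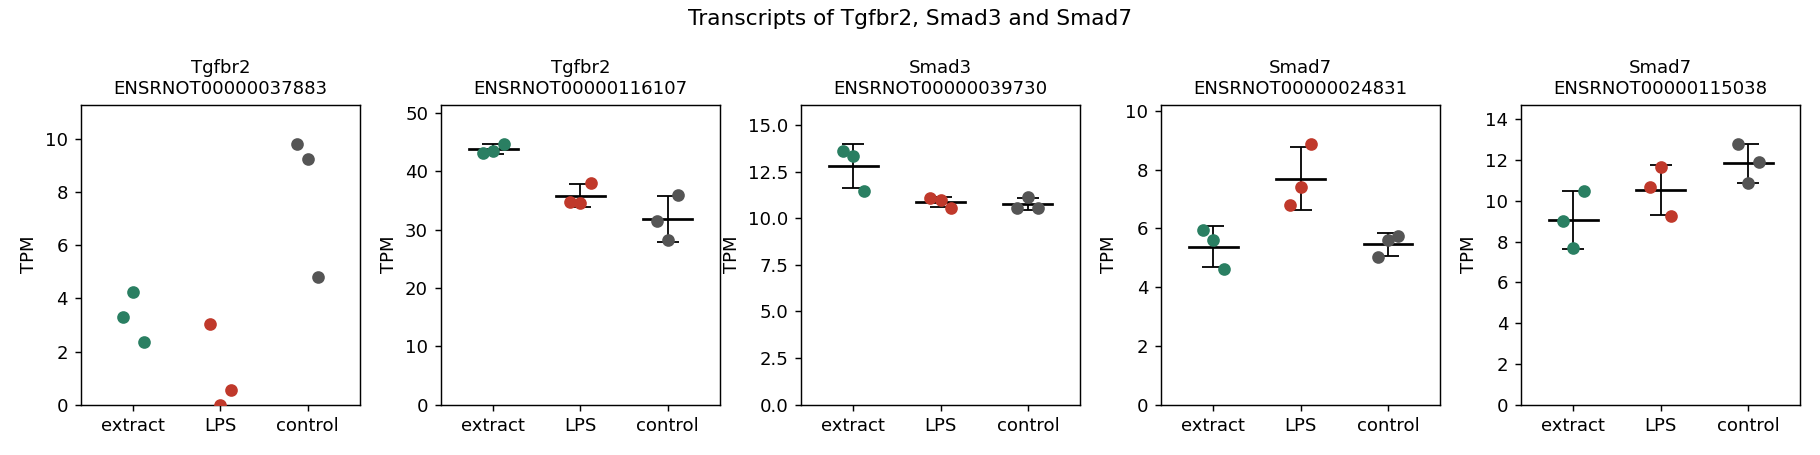
TPM (vertical axes, from 0) of the 5 tested transcripts of Tgfbr2, Smad3 and Smad7 in the 3 libraries of extract, LPS and control cells. Points are libraries, lines are means and bars are SD, left out for the transcript listed at 0 TPM in a library. The minor Tgfbr2 transcript lies between 4.79 and 9.82 TPM in control libraries and at 4.26 TPM or less in the others.

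Genes with the most similar profile were sought for Tgfb3 and Smad7, the called members with the highest and the most negative log2 fold change in extract versus LPS. Likeness was the root mean square difference of log2(TPM + 1) over the 9 libraries, each gene centred on its own mean. For Tgfb3 the nearest were ENSRNOG00000030776 at 0.0447 and ENSRNOG00000033090 at 0.0528, against a median of 0.401 over all genes, and 32 genes lay within 0.1. The measure ignores the level of a gene. ENSRNOG00000030776 averaged 15.8 TPM in extract, 7.96 TPM in LPS and 14.5 TPM in control cells, near the level of Tgfb3. ENSRNOG00000033090 was more abundant, with 47.4 TPM in extract, 26.4 TPM in LPS and 47.4 TPM in control cells. For Smad7 the nearest were ENSRNOG00000004639 at 0.0301 and ENSRNOG00000001201 at 0.0434, against a median of 0.220, and 647 genes lay within 0.1.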

How the data were processed

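RNA from 9 libraries of HBZY-1 cells, 3 per group, was analysed from 2 tables of TPM deposited by the authors, 1 per gene and 1 per transcript. Per the submitters' processing notes, the tools were HISAT2 2.1.0, RSEM 1.3.3 and fastp, with no role given. Build, annotation and strandedness are not stated. Columns were assigned to libraries by the code opening each title. TPM is relative, so a few strongly raised genes lower the rest, and it holds no depth.

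Values were taken as log2(TPM + 1), which understates the change of low genes, for features with a mean of 1 TPM or more. Group means were fitted over the 9 libraries by limma 3.58.1 (R 4.3.3) with a mean-variance trend and 6 residual degrees of freedom. Tests were two-sided, with Benjamini-Hochberg adjustment over all tested features and a threshold of 0.05. The procedure was also run on simulated data in which far fewer genes differed than were called here. That run does not give the error rate of the calls made here. Members and gene lists were chosen with earlier results of these data known. All members were named whatever their values. Lists of related pathway genes and cell markers were not analysed here, since no table pairs the identifiers with names. A planned share of Tgfb1 among 3 ligands was replaced by that of Tgfb3 among 2, since the Tgfb2 identifier had no row. Transcripts were linked to genes by sums within 0.006 TPM per rounded value. Alternatives were other pseudocounts, filters and scalings, a replicate block, 2-group fits, no trend, and leaving out each library.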

Additional observations from a re-analysis of the deposited data

How the results depend on the processing

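Of the 18 fold changes of the 6 members, 13 kept direction and call under all 18 alternatives, among them 8 of the 9 called ones, all but Tgfbr1 in extract versus LPS. Under median-of-ratios scaling or quantile normalization 1 member, Tgfbr1, was higher in LPS versus control instead of 0, all genes higher numbered 2102 and 1940 instead of 1193, and all genes lower 2278 and 2402 instead of 3769, as both methods centre the libraries. The uncalled Tgfbr1 difference in extract versus control was 0.0158 and 0.0277 under these scalings instead of -0.0229. With 1 library left out, it lay between -0.0446 and 0.0109 for the gene and its transcript ENSRNOT00000009452. Tgfb1 and its transcript ENSRNOT00000028051 in LPS versus control lay between -0.0334 and 0.0450. Members higher in LPS versus control then numbered 0 to 1 and members lower 1 to 2, and members lower in extract versus LPS 1 to 2. For transcripts, 10 of 24 fold changes kept direction and call under all 13 alternatives. Median-of-ratios scaling called 5 member transcripts in LPS versus control instead of 3, and gave 0.0167 for ENSRNOT00000009452 and 0.0148 for ENSRNOT00000024831 in extract versus control, both uncalled. Without 1 library ENSRNOT00000024831 lay between -0.0843 and 0.0679, and 2 to 3 transcripts were called in extract versus LPS and 1 to 3 in extract versus control. The causes of these single-library changes were not tested. With the replicate block the member counts were 1 lower in LPS versus control, 3 higher and 2 lower in extract versus LPS, and 2 higher and 1 lower in extract versus control. Same-numbered libraries showed correlated deviations of 0.0951 at the highest, so the numbers were not taken to pair libraries. Depth is unknown, so what it limits was not examined.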
